A study of Rattus norvegicus with 2 samples.

Results

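Enzymes that make serine and move its carbon into folate were read in basilar arteries of the rat with a pair of Clariom S arrays. The enzymes were chosen by pathway, and they were picked with the signals of these arrays already known, since Psat1 stood among the largest differences. The 10 genes are Phgdh, Psat1, Psph, Shmt1, Shmt2, Mthfd1, Mthfd2, Aldh1l2, Gldc and Cbs, out of 15037 genes with a named probe set on the array. A named probe set was found for 8 of the 10, with 1 probe set each, and Shmt1 and Gldc were not analysed here. The ligation array held pooled RNA of 4 male Sprague-Dawley rats, 13 months old by the labels, whose common carotid arteries had both been tied with suture 4 weeks earlier. The sham array held pooled RNA of 4 male rats of the same strain and age, operated on with the carotids exposed and left untied. The labels give no difference in genotype or drug between the groups. Each group is thus 1 pool on 1 array, so every difference below is a description with no SD, no p-value and no replicate check.

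Serine is made from the glycolytic intermediate 3-phosphoglycerate by Phgdh, Psat1 and Psph in turn. The serine hydroxymethyltransferases then split serine into glycine and a carbon unit held by folate, with Shmt1 in the cytosol and Shmt2 in mitochondria. Mthfd2 and Aldh1l2 oxidize folate-bound carbon in mitochondria, and Mthfd1 interconverts the same carbon units in the cytosol for purine and thymidylate synthesis. Gldc is the glycine decarboxylase of the glycine cleavage system, and Cbs joins serine to homocysteine in the first step of transsulfuration. In the brain, astrocytes are known as the main site of Phgdh and of serine synthesis.

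The values are linear signal intensities, with highest values of 999963 (ligation) and 998298 (sham). Background was read from 23 antigenomic probe sets, which match no rat transcript and are numbered by the G and C bases of their probes, from 3 to 25. Their signals spanned 8.58 to 157 after ligation and 9.14 to 151 after sham surgery. The 11 sets with 8 to 18 such bases read at most 44.2 on either array, and the other 12 read at least 109. Background thus varied with base composition, and the probes of the enzymes were not matched to it here. Below, within background means a signal that did not exceed the brightest antigenomic probe set of its array. All 12 smooth muscle markers were above background on both arrays, among them Acta2 with signals of 553912 and 763073. Smooth muscle forms the wall of this artery. Where a pair of signals is given, the ligation array comes first.

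Both enzymes past 2-fold belong to serine synthesis. Psat1, the phosphoserine aminotransferase, read 334 after ligation and 46.1 after sham surgery. Its signal was 7.26-fold higher after ligation, a log2 difference of 2.86, and it stood in place 10 among the 15037 named genes with all signals as measured. The ligation signal exceeded all 23 antigenomic probe sets, and the sham signal exceeded 11 of them and lay within background. With the sham signal raised to the brightest antigenomic probe set, the difference was at least 2.22-fold. In a whole vessel, fewer cells of a type and less RNA per cell cannot be told apart, here and below.

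Phgdh, the dehydrogenase that commits 3-phosphoglycerate to serine, read 223 after ligation and 89.8 after sham surgery. The ligation signal was 2.49-fold higher, with a log2 difference of 1.31, in place 266. As for Psat1, the signal was above background after ligation and within it after sham surgery, where it exceeded 11 of the 23 antigenomic probe sets. Phgdh was at least 1.48-fold higher with the sham signal raised to background, and 1.87-fold higher on the scale of signals with 64 added, both under the 2-fold threshold of the study.

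Psph, the phosphatase that releases free serine, read 191 after ligation and 149 after sham surgery. Its value of 1.29-fold did not pass 2-fold. The sham signal exceeded 22 of the 23 antigenomic probe sets, and the ligation signal exceeded all of them. After ligation all 3 genes of serine synthesis were above background, and after sham surgery none was. For Psph this rests on a sham signal of 149 against 151 for the brightest antigenomic probe set. Of all 15037 named genes, 388 were above background on the ligation array alone. The enzymes were picked with these signals known, so nothing is read from this count. With the sham signals raised to background, the log2 differences of the 3 genes were at least 1.15 for Psat1, 0.57 for Phgdh and 0.34 for Psph. Lower bounds do not order the 3 steps.

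**Figure D1:**
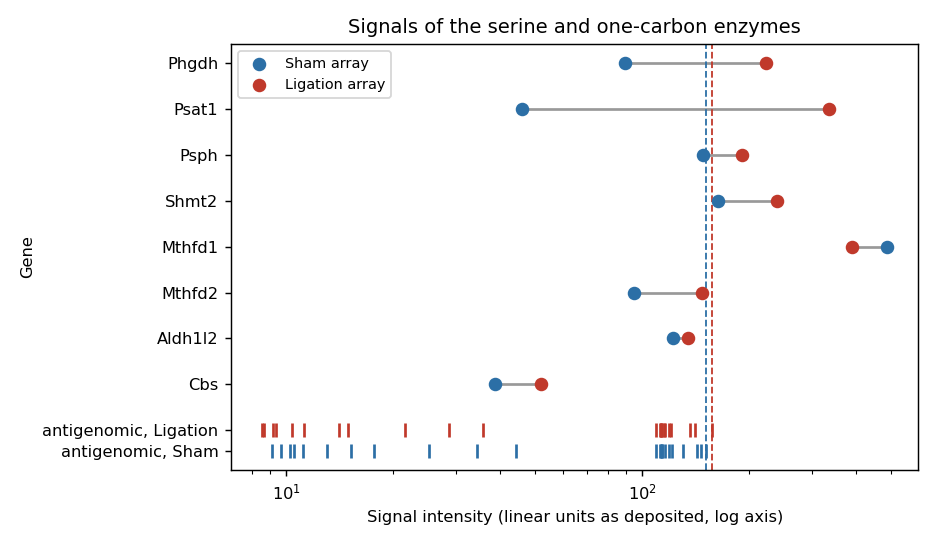
Signal intensity of each enzyme (log axis, linear units as deposited) in the ligation array (red) and the sham array (blue), 1 pool each, with no error bars. Dashed lines mark the brightest of the 23 antigenomic probe sets of each array, whose signals are the ticks at the bottom. Psat1 runs from 46.1 to 334 and Phgdh from 89.8 to 223, both crossing the lines, and Mthfd1 is the 1 enzyme with the sham signal on the right.

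The promoter windows of Psat1 and Phgdh are shown because these genes alone among the enzymes passed 2-fold. They come from RefSeq on GRCr8 and run from 250 bases before to 50 bases after the annotated start, 5′ to 3′ on the gene's strand, which is the minus strand for both. The Psat1 window is chr1:222645359-222645658 and the Phgdh window is chr2:188624740-188625039. Capitals mark the matches to the searched motifs, on either strand.
Psat1: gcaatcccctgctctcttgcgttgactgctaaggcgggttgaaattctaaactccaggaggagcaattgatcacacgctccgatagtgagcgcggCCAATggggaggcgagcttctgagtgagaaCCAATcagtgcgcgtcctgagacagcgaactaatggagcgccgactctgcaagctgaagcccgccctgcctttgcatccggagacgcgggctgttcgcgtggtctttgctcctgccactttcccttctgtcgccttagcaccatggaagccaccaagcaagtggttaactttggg
Phgdh: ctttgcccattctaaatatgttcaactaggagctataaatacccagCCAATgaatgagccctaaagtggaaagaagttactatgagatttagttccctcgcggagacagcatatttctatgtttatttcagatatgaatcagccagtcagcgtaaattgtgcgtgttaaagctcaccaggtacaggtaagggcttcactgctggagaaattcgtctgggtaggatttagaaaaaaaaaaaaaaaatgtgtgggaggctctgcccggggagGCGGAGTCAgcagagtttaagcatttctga

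The core of the element bound by C/EBP and ATF4 dimers, TGATGNAA, was in neither window and in none of the 8 enzyme windows in the table, which covers Gldc and Shmt1 but not Mthfd1 or Aldh1l2. It was found in 3.98% of all 33469 promoter windows. The antioxidant response element, TGACNNNGC, had 1 match on the opposite strand of Phgdh, at bases 21 to 29 after the start, and 12.1% of all windows hold it. The E-box CACGTG was found only in the window of Shmt1, with 2 matches, against 6.42% of all windows. CCAAT, a motif added after the sequences were seen, had 2 matches in Psat1, at -155 and -125, and 1 in Phgdh, at -204. It was in 6 of the 8 windows, against 37.5% of all windows, with 3 matches in Mthfd2 and none in Shmt2 or Psph. The 33469 windows belong to 27457 genes, so some genes count more than once. With CCAAT added after these same windows were read, nothing is read from its count. The motifs overlap nowhere in these windows, and a match describes letters and not binding.

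Of the mitochondrial folate enzymes, Shmt2 alone was above background, and none passed 2-fold. Shmt2, which feeds serine carbon into mitochondrial folate, read 240 after ligation and 163 after sham surgery, a value of 1.47-fold. Both signals exceeded all 23 antigenomic probe sets, the sham signal by a small margin over the brightest, at 151. Mthfd2, the mitochondrial methylenetetrahydrofolate dehydrogenase, had 148 and 94.8, a value of 1.56-fold. Its signals exceeded 22 and 11 antigenomic probe sets, so both lay within background. Aldh1l2, the mitochondrial formyltetrahydrofolate dehydrogenase, had 134 and 122, a value of 1.10-fold, with both signals within background.

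Mthfd1 was the 1 enzyme with a lower signal after ligation. This cytosolic enzyme, which carries 3 activities of folate interconversion in a single protein, read 389 after ligation and 488 after sham surgery. Both signals were above background, and the log2 difference was -0.33, or 1.26-fold lower. With 1 array per group, the spread against which so small a difference could be judged was not measured.

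Cbs, the transsulfuration enzyme that draws on serine, read 52.1 after ligation and 38.6 after sham surgery. Its value was 1.35-fold, and its signals exceeded 11 and 10 antigenomic probe sets, within background on both arrays. A gene within background is not shown to be absent from the vessel.

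Among the 8 enzymes, 2 passed 2-fold with the higher signal after ligation, none was under 0.5-fold, and 7 were above 0. Over all 15037 named genes, 4.04% were over 2-fold higher and 2.97% under 0.5-fold. Over the 7751 named genes above background on 1 array or both, the shares were 6.19% and 3.50%. Above 0 were 7317 of the 15037 and 4371 of the 7751. Since these same arrays were in view when the enzymes were picked, nothing is read from these counts of the enzymes or from their medians below. The median log2 difference of the 8 was 0.49, against -0.01 over all named genes and 0.08 over those above background. The 5 enzymes above background on at least 1 array, Phgdh, Psat1, Psph, Shmt2 and Mthfd1, had a median of 0.56. Of these, 3 (Phgdh, Psat1 and Psph) passed through the ligation array alone, where they were higher, so this filter favours higher values after ligation.

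The middle 95% of log2 differences over all named genes ran from -1.06 to 1.18. Psat1 and Phgdh lay above this range and the other 6 enzymes inside it. Over the named genes above background on 1 array or both, the class of Psat1 and Phgdh, it ran from -1.16 to 1.35, and Phgdh at 1.31 lay inside. Over the 7286 genes within background on both arrays it ran from -0.99 to 0.88, and Mthfd2 (0.64), Cbs (0.43) and Aldh1l2 (0.14) lay inside. Psat1 was known to stand among the largest differences when the enzymes were picked. These ranges are thus a description, and nothing is read from where the enzymes lie in them.

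**Figure D2:**
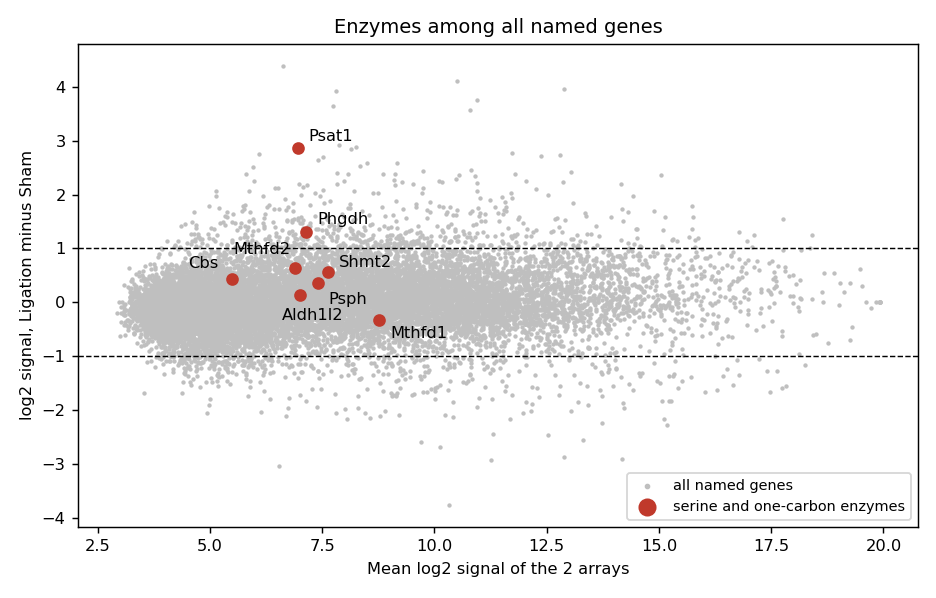
Log2 difference of ligation minus sham against the mean log2 signal of both arrays, for 15037 named genes (grey) and the 8 enzymes (red). Dashed lines mark 2-fold in either direction. Psat1 (2.86) and Phgdh (1.31) lie above the upper line, and the other 6 lie between the lines.

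The differences of all 8 enzymes kept their sign under each of the 6 scalings compared (as deposited, array medians, quantiles, housekeeping genes, removal of the trend on the mean, 64 added). Psat1 ranged from 3.62-fold to 7.26-fold and Phgdh from 1.87-fold to 2.49-fold. Mthfd1 stayed below 0, from -0.43 to -0.29 on the log2 scale. Cbs ranged from 1.13-fold to 1.46-fold and Mthfd2 from 1.33-fold to 1.56-fold. In both leading genes the lowest value of these came with 64 added to each signal.

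**Figure D3:**
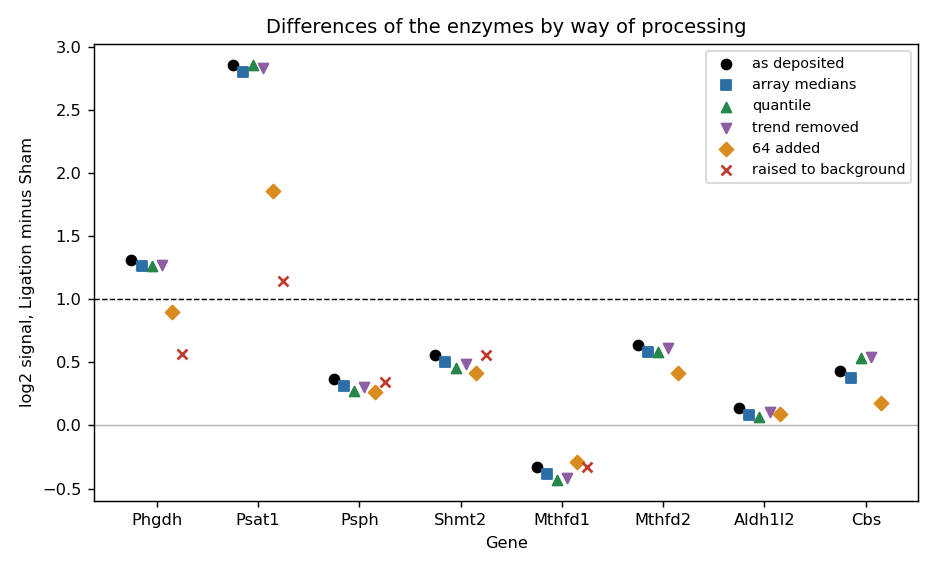
Log2 difference of ligation minus sham of each enzyme under the scaling as deposited, 4 of the 5 alternatives (housekeeping centring is not drawn) and a further setting with signals raised to background, which is drawn only for enzymes above background on at least 1 array. The dashed line marks 2-fold. Psat1 stays above it in each setting shown, down to 1.15, and Phgdh falls below it with 64 added (0.90) and with signals raised to background (0.57).

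Other genes of serine, glycine, folate and methionine metabolism lay on both sides of 0. Of 56 genes written from textbook knowledge, 53 had a named probe set, of which 5 passed 2-fold with the higher signal after ligation, 1 was under 0.5-fold and 47 were between. Their median log2 difference was -0.03, with 26 above 0 and 27 below 0, and 19 of the 53 were within background on both arrays. The shares over all named genes were 4.04% over 2-fold higher and 2.97% under 0.5-fold, as given above. Of the 53, 34 were above background on at least 1 array, 3 of them through the ligation array alone. Among these 34, 4 were over 2-fold higher and 1 under 0.5-fold, against shares of 6.19% and 3.50% over all named genes above background.

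Folate uptake and retention genes were all 6 above 0, with a median of 0.50, while 7317 of all 15037 named genes were above 0. Folr2, a folate receptor carried by macrophages, read 3133 after ligation and 988 after sham surgery, which is 3.17-fold higher. Slc19a1, the reduced folate carrier, had 5328 and 2456, which is 2.17-fold higher. These signals were above background on both arrays. Ggh and Folr1 were within background on both arrays, and Fpgs, which adds glutamates that hold folate in the cell, had a value of 1.22-fold.

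Transporters of serine and glycine were split, 5 above 0 and 3 below. Slc1a5, an exchanger of neutral amino acids, had 107 and 51.7, which is 2.08-fold but within background on both arrays. The mitochondrial serine transporter Sfxn1 had 947 and 735, a value of 1.29-fold, and the glycine transporter Slc6a9 had a value of 1.14-fold. Slc38a2, which takes up small neutral amino acids, was 1.49-fold lower, with 59136 after ligation and 88048 after sham surgery.

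Among other folate enzymes, Mthfs had 163 and 79.0, which is 2.06-fold higher with the sham signal within background. Raised to background, its difference was at least 1.08-fold. Aldh1l1, the cytosolic counterpart of Aldh1l2 and a known marker of astrocytes, had 112 and 81.7, within background on both arrays. Tyms, the thymidylate synthase, had 628 and 665, a value of 0.94-fold. The partners of Gldc in glycine cleavage, Amt, Gcsh and Dld, had values of 1.17-fold, 0.89-fold and 1.05-fold, all above background.

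The methionine cycle was mostly below 0, in 12 of 14 genes, with a median of -0.27 and none past 2-fold. Of the 14, 6 were within background on both arrays, and each of these was below 0. Over all named genes, 7682 of 15037 were below 0, and 4309 of the 7286 within background on both arrays. Dmgdh, a mitochondrial enzyme of choline breakdown, had the lowest value of these, 42.3 against 80.9, within background on both arrays. Mat2a, which makes S-adenosylmethionine outside the liver, had 15618 and 10036, a value of 1.56-fold, and its regulatory partner Mat2b had 1249 and 1869. The methionine synthase Mtr was 1.18-fold lower.

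Transsulfuration and glutathione genes differed in direction. Gclc, the catalytic subunit of the first enzyme of glutathione synthesis, had 566 and 250.3, which is 2.26-fold higher. Its modifier subunit Gclm had 1015 and 556, a value of 1.83-fold. Cdo1, which oxidizes cysteine toward taurine, had 391 and 911, which is 2.33-fold lower and the lowest difference in the list. Cth, the enzyme after Cbs, had 27.7 and 46.6, within background on both arrays. The 5 purine synthesis genes ran from -0.36 to 0.49 on the log2 scale.

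**Figure D4:**
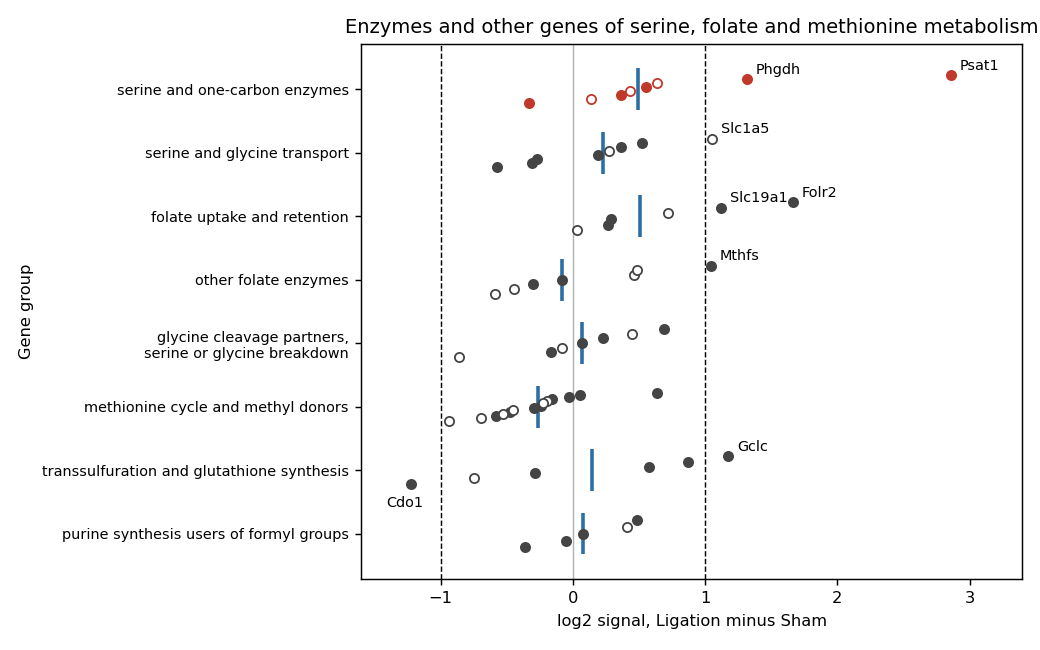
Log2 difference of ligation minus sham for the 8 enzymes (red) and 53 other genes of the pathways (black), 1 point per gene, by group. Open points were within background on both arrays, blue bars are group medians and dashed lines mark 2-fold. Psat1 lies at 2.86, and 5 of the 53 other genes lie above the upper line and 1, Cdo1, below the lower line.

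Genes around serine synthesis were read from lists for related processes. Several serine enzymes are known targets of ATF4, the transcription factor of the amino acid response. Of 18 genes of that response, 12 were above 0, 1 was over 2-fold and none was under 0.5-fold, with a median of 0.21. The shares over all named genes were 4.04% over 2-fold higher and 2.97% under 0.5-fold. Atf4 itself had 12572 and 8762, a value of 1.43-fold, and the asparagine synthetase Asns had 1534 and 941, a value of 1.63-fold. Slc7a11, the cystine transporter, had 35330 and 17398, which is 2.03-fold higher. Vldlr, of the same list, had 1880 and 3718, a value of 0.506-fold, so both genes lay close to a threshold. Ddit3 had a value of 0.94-fold, and Trib3 and Chac1 were within background on both arrays.

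The 13 glycolytic genes had a median of 0.14, with 7 above 0 and 6 below. Pgam1 and Eno1 among them act after the serine branch, and Eno1 had a value of 1.86-fold. Pgk1, which makes 3-phosphoglycerate, was 1.41-fold lower, and Pgam1, which draws 3-phosphoglycerate down the main path, had a value of 1.10-fold. Aldoc, an aldolase that also marks astrocytes, had 2040 and 591, which is 3.45-fold higher and the 1 glycolytic gene past 2-fold. Proliferation genes, which often go with one-carbon enzymes, had a median of -0.16 over 13 genes, of which 10 were within background on both arrays. Mki67 had 145 and 305, a value of 2.11-fold lower with the ligation signal within background.

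Markers of several cell types differed between the same arrays, beside Psat1 and Phgdh. For the counts here and in the next paragraph, the shares over all named genes were 4.04% over 2-fold higher and 2.97% under 0.5-fold. Over those above background on 1 array or both they were 6.19% and 3.50%. Of 14 astrocyte markers, 13 were above 0 and 9 over 2-fold higher, with a median of 1.32, and 13 of the 14 were above background on at least 1 array. Their summed signal was 390943 after ligation and 265050 after sham surgery. Such sums, here and below, add levels of different probe sets, so the brightest weigh most. Most of both sums came from Gjb6, Gja1 and Ndrg2, with values of 1.47-fold, 1.24-fold and 0.96-fold. Ndrg2 was the 1 marker below 0. The 4 markers with the largest differences were dimmer. Gfap had 29760 and 1908, Aqp4 had 6060 and 350, Slco1c1 had 749 and 60.3, and Ntsr2 had 451 and 21.6, the last 2 with sham signals within background. With sham signals raised to background, Slco1c1 was at least 4.96-fold and Ntsr2 at least 2.99-fold higher. No astrocyte marker was at 0. Without Aldoc and Aldh1l1, which the lists above also hold, 8 of 12 were over 2-fold higher. The part of astrocyte RNA in the differences of Psat1 and Phgdh was not tested.

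Oligodendrocyte and Schwann cell markers had a median of 1.15 (8 of 11 over 2-fold, summed signals 207223 and 88486), endothelial markers 1.35 (7 of 12, 195318 and 104404) and macrophage markers 0.75 (4 of 12, 46644 and 25514). Pmp22 (189643 and 85563) made up most of the first pair of sums, and Olig1 and Olig2, within background, were below 0. Mog and Cd163 were counted as over 2-fold but were within background on both arrays. Fibroblast and leptomeningeal markers had a median of 0.66 (4 of 14 over 2-fold). Smooth muscle markers had a median of -1.20 (7 of 12 under 0.5-fold, 2344560 and 3575286). Tagln, with 832768 and 895395, weighed most in these 2 sums. Neuron markers had a median of 0.10 and none past 2-fold, with Stmn2 at 1.60-fold and Gad1 at 1.68-fold lower, within background. The macrophage markers Tyrobp (2148 and 629) and Mrc1 (6494 and 2164) were also higher after ligation, and the part of macrophage RNA in the value of Folr2 was not tested.

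**Figure D5:**
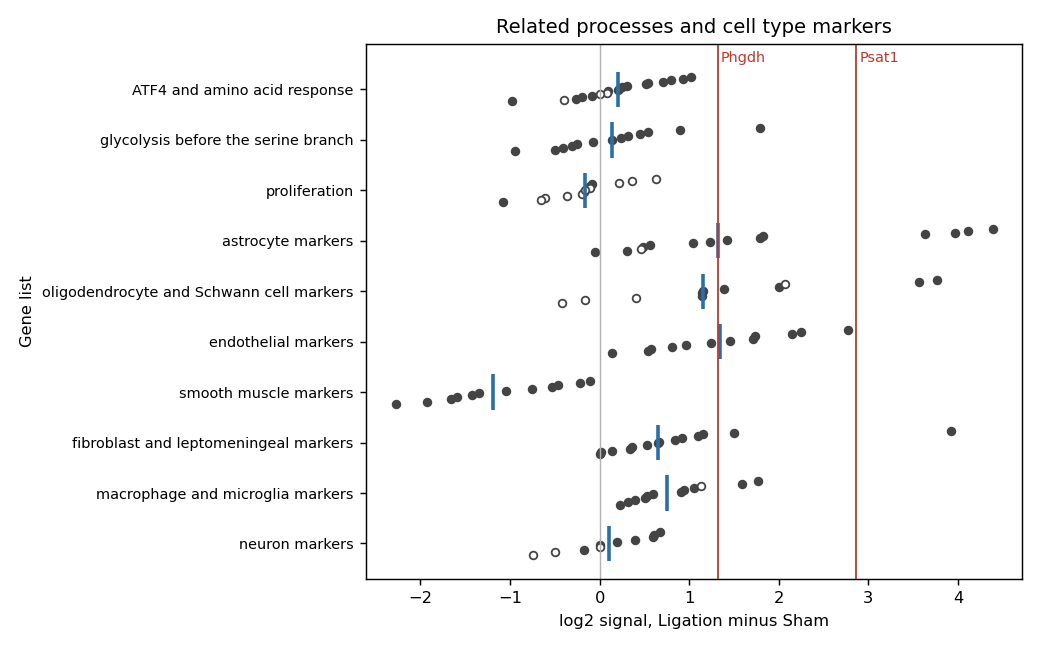
Log2 difference of ligation minus sham for genes of related processes and of cell type marker lists, 1 point per gene, with open points within background on both arrays and blue bars at list medians. Red lines mark Phgdh (1.31) and Psat1 (2.86). Both are drawn as measured, with sham signals within background. The list medians run from -1.20 in smooth muscle to 1.35 in endothelium.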

How the data were processed

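RNA from basilar arteries was measured on 2 Clariom S arrays, 1 per group, each with equal RNA of 4 rats pooled by the authors and cDNA made from 50 ng. The authors deposited linear signal intensity per probe set, made by RMA in Affymetrix Expression Console according to the submitters' processing notes, whose version and the genome build are not given in the sources used here. Version 3.2 of a further program, Microarray Data Analysis Tool, is named in the study's methods. RMA usually gives log2 values, while the deposited values span a linear scale, and how they were converted is not given in the sources used here. Both value columns were matched to the samples by name.

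Of 23188 gene probe sets, 15049 carried 1 symbol in the platform annotation, for 15037 genes, and 8139 were unnamed here. All symbols matched RefSeq for GRCr8 through the Entrez identifier, and none changed. Log2 was taken of the intensity, probe sets of a gene were averaged, and differences were computed as ligation minus sham with no further scaling. Thresholds were over 2-fold and under 0.5-fold, as in the study. With 1 array per group, no test was run, a batch and the group cannot be told apart, and precision is limited by having 2 arrays.

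The enzymes and lists were chosen with earlier results of these data known. The genes named were all enzymes, the pathway genes past 2-fold and the 2 largest differences in each direction, and up to 4 genes past 2-fold above background in each further list or else the 2 largest. The rule also asked for the 3 genes with signals nearest to those of Psat1, which are left out because the distance sets levels of different probe sets against each other. The rule admitted more marker genes than are named, and further genes were named as examples after their values were seen. The functions were tested on simulated data, in which known shifts larger than the 2-fold threshold were recovered. The spread of the simulated differences was set smaller than in the data, so this checks the functions and not the differences reported. Alternatives were array-median centring, quantile normalization, housekeeping centring, removal of a lowess trend (fraction 0.3), 64 added before the log, 2 floors on dim genes, the brightest probe set per gene, thresholds of 1.5-fold and 3-fold, and means in place of medians. Raising signals to the brightest antigenomic probe set, and the CCAAT motif, were added after the data were seen. The spread used to compare alternatives was the SD of 13 housekeeping genes, 0.38 on the log2 scale, which includes Actb and Eef1a1 at the ceiling. PCR, imaging and rabbit data were not analysed here. Scripts ran in Python 3.11.15 with pandas 2.3.3, numpy 2.4.6, matplotlib 3.10.9 and statsmodels 0.14.6.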

Additional observations from a re-analysis of the deposited data

How the results depend on the processing

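No difference of a single enzyme reversed under the alternatives run. The median over the other pathway genes, -0.03, was close to 0 and its sign was not stable, with 0.06 over genes above background, 0.07 over genes at or above the median signal and 0.06 for the mean. Of the enzymes, the number over 2-fold higher was 2, and it was 1 with 64 added to each signal, 1 at a threshold of 3-fold and 1 with signals raised to the brightest antigenomic probe set, with Psat1 left each time. With 64 added and with signals raised, Psat1 was at 1.86 and 1.15 on the log2 scale, and Phgdh at 0.90 and 0.57. Of the other pathway genes, the number over 2-fold was 5, and it was 3 with 64 added, 3 with signals raised, 9 at 1.5-fold and 1 at 3-fold. The number under 0.5-fold was 1, and it was 6 at 1.5-fold and 0 at 3-fold. The other 53 of 62 alternative counts and medians, and 61 of 65 values of single enzymes, stayed within 1.5 times or within the housekeeping SD. Part of this was fixed in advance. Each enzyme has 1 probe set, so taking the brightest changes nothing. The floors on dim genes only leave genes out, and raising signals to background cannot alter Shmt2 or Mthfd1. With the sham signals of Psat1 and Phgdh within background, their folds are less well known than those of Shmt2 and Mthfd1. The sham signals of Psph (149) and Shmt2 (163) lay close under and close over the brightest antigenomic probe set (151). The cut between these 2 genes thus does not mean that either fold is better known. No paired analysis was possible because each group is 1 array with no replicate number.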

Other observations

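Some probe sets had the same signal on both arrays to the last digit deposited. They were 57 of 23188 gene probe sets, of which 38 were named genes, and 4 of the 23 antigenomic probe sets. Trib3, of the ATF4 list, read 28.9 on both arrays, and so did Nefl, of the neuron list, with 36.5. The 4 antigenomic probe sets were those with 19, 20, 24 and 25 G or C bases, with signals from 109 to 119. Equal values like these carry no difference in either direction, and the cause was not tested.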
